A study of Homo sapiens with 15 samples.

Results

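RPL22 and RPL22L1 encode a pair of related proteins of the large ribosomal subunit, and they are described here across HEK293-derived cells that carried more or less of the RNA-binding proteins ZC3H7A and ZC3H7B. The 2 genes were taken by name from a table of 55769 genes in 15 libraries. They were chosen by their own normalised counts in these libraries, which had been seen to lie in opposite directions, so their levels, differences and ratio are given as a description with no p-value. Both were measured in every library.

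There were 5 groups of 3 libraries. Overexpression was studied in Flp-In T-REx 293 cells, in which doxycycline at 1 µg/mL for 24 h switched on a transgene. The transgene held the Flag/HA tag alone (Control), or the tag joined to ZC3H7A, or the tag joined to ZC3H7B, and all 3 groups received the drug. These libraries were made from poly(A) RNA of a hypotonic lysate prepared for polysomes, from independent replicates; the labels do not say whether more than a single line carried each transgene. In the depletion experiment, Parental cells were wild type with a control shRNA (shCTR). DD cells were knocked out for ZC3H7A and expressed shRNA to ZC3H7B (ZC3H7A-KO-shZC3H7B), and whether they descend from a single clone is not given. Both were selected with puromycin at 5 µg/mL, which was withdrawn 2 passages before collection, and their libraries came from a company with its own protocol. Whether the 3 Parental and the 3 DD libraries are separate cultures is not stated, so errors there measure the spread between those libraries, which may be technical. Small non-coding RNAs took 5.60% to 6.58% of the reads in these and at most 0.00539% in the overexpression libraries, so the pair was compared only within each experiment.

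HEK293 is an established line from human embryonic kidney. The overexpression libraries held 45.5 to 57.6 M reads each, and those of Parental and DD 12.2 to 15.5 M. All 8 listed HEK293 markers had a group mean of at least 10 in the overexpression groups, and 7 of 8 did in Parental and DD. PTPRC, which marks leukocytes, was at 0 in Parental and DD and reached 1.18 in the overexpression libraries, while KRT5 and KRT14, which mark keratinocytes, were at 0 in Parental and DD. Values are normalised read counts, that is, reads divided by a size factor per library. ZC3H7A was 3259 ± 102 in Control and 11192 ± 1492 with its transgene, and ZC3H7B was 5938 ± 114 in Control and 27142 ± 815 with its own (mean ± SD, n = 3, as throughout). ZC3H7B was 6463 ± 505 in Parental and 1084 ± 84.1 in DD. ZC3H7A was 1599 ± 78.7 in Parental and 1658 ± 106 in DD, so reads over the whole gene did not show the labelled knockout. Every direction given for DD refers to libraries by that label.

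RPL22 (eL22) sits on the outer surface of the large ribosomal subunit, binds RNA hairpins, and is not required for general protein synthesis. RPL22L1 (eL22L1) can take its place in the ribosome. In mouse and human cells the RPL22 protein is known to hold down expression of its paralog's mRNA, and cells that lose RPL22 are known to raise RPL22L1.

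Part of each coding sequence is shown because the pair differs in how many codons end in A or T, a property that also varied with the size of change over all genes in these libraries. They come from GENCODE 29 on GRCh38. RPL22 (ENSG00000116251, transcript RPL22-201) lies on the minus strand of chromosome 1, and RPL22L1 (ENSG00000163584, transcript RPL22L1-201) lies on the minus strand of chromosome 3. Shown is the longest stretch of 71 codons (213 bases) that align without a gap, codons 58 to 128 of RPL22 and 52 to 122 of RPL22L1, 5′ to 3′, with codons that end in A or T in capitals.
RPL22: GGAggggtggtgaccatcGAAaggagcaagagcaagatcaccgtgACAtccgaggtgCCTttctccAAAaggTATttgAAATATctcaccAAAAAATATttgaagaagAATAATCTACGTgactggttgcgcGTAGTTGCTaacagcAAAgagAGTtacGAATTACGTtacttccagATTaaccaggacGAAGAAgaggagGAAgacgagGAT
RPL22L1: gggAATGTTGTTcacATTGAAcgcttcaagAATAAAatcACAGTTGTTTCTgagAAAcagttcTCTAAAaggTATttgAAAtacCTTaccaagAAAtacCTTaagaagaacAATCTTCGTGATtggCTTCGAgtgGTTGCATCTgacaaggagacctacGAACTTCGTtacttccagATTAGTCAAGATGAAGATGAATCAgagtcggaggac

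In this stretch 28 of the 71 codons of RPL22 and 39 of those of RPL22L1 ended in A or T, and 147 of 213 bases matched. Of all 128 codons of RPL22 before the stop, 57 (44.5%) ended in A or T. In RPL22L1 it was 68 of 122 codons (55.7%). The median gene had 39.9%, and the share in RPL22 was above that of 57.2% of 13010 tested genes with a coding sequence, that in RPL22L1 above 75.9%. Translated and aligned, the proteins of 128 and 122 residues matched at 90 of 122 aligned positions (73.8% identity). The same codon encoded 41 of those 90 shared residues. At the other 49, the codon ended in G or C in RPL22 and in A or T in RPL22L1 at 26 positions, and the reverse held at 17. The pair thus differed in sequence at many bases.

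RPL22 was lowest with ZC3H7A and highest with ZC3H7B among the overexpression groups, and RPL22L1 stood in the opposite order. RPL22 was at 4115, 4315 and 4309 normalised counts in Control, at 1999, 1947 and 2228 with ZC3H7A, and at 5598, 5869.7 and 5972 with ZC3H7B. RPL22L1 was at 444, 435 and 437 in Control, at 2356, 2499 and 2524 with ZC3H7A, and at 367, 338 and 358 with ZC3H7B. No library of any group overlapped another group of the experiment in either gene, and the neighbouring levels in each order were further apart than the spread within groups. As a background, 42.2% of 17669 tested genes were lower and 35.7% higher with ZC3H7A than in Control without overlap. With ZC3H7B against Control these shares were 41.8% lower and 35.3% higher, and with ZC3H7A against ZC3H7B 22.5% lower and 26.6% higher. In bulk RNA, fewer cells with a transcript and less of it per cell cannot be told apart.

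**Figure D1:**
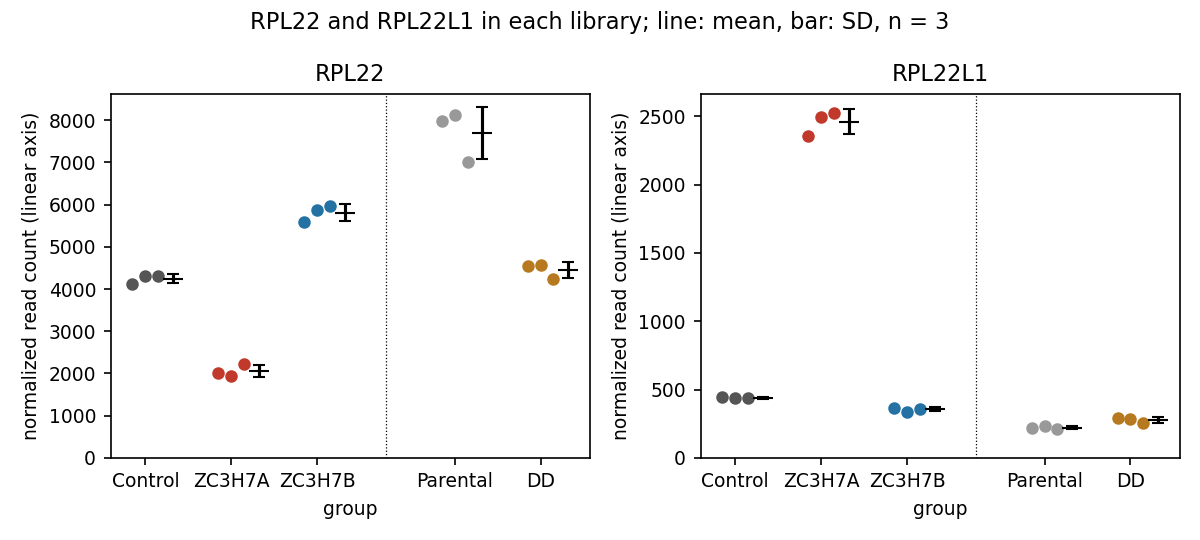
Normalised read count of RPL22 and RPL22L1 in each of the 15 libraries by group (linear axes); points are libraries, the line beside them is the group mean and the bar its SD (n = 3). RPL22 is lowest with ZC3H7A (mean 2058) within the overexpression groups, where RPL22L1 is highest (mean 2459.7), and the groups within an experiment do not overlap.

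Against Control, RPL22 was 2.07-fold lower with ZC3H7A, a log2 fold change of −1.05 (SE 0.0526), and means were 4247 ± 114 and 2058 ± 149.6. RPL22L1 was 5.59-fold higher, with a log2 fold change of 2.48 (SE 0.0511) and means of 439 ± 4.58 and 2459.7 ± 90.8. Its change was the 54th highest of 17669 tested genes, while that of RPL22 was the 1647th lowest. The median of all tested genes was −0.07.

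With ZC3H7B both genes differed from Control in the other direction and by less. RPL22 was 1.37-fold higher at 5813 ± 193 (log2 fold change 0.45, SE 0.0526), the 2517th highest change of 17669 genes. RPL22L1 was 1.24-fold lower at 354 ± 14.8 (−0.31, SE 0.0511), the 5941st lowest change. The latter came to −0.0497 once the trend of all genes with codon make-up was removed, so its size depended on that step.

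Set against each other, the ZC3H7A libraries had 2.83-fold less RPL22 than the ZC3H7B libraries (log2 fold change −1.50, SE 0.0526) and 6.93-fold more RPL22L1 (2.79, SE 0.0511). In this comparison the median over all genes was 0.01. RPL22 then had the 86th lowest change of 17669 genes and RPL22L1 the 54th highest. All 3 of these comparisons draw on the same 9 libraries, and those against Control share its libraries.

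In DD, with both ZC3H7 proteins targeted, RPL22 was lower than in Parental and RPL22L1 slightly higher. RPL22 was at 7973, 8133 and 7002 normalised counts in Parental and at 4552, 4582 and 4242 in DD. RPL22L1 was at 215, 237 and 211 in Parental and at 292, 284 and 253 in DD. The groups did not overlap in either gene; without overlap, 21.5% of 18491 tested genes were lower in DD and 21.6% higher. RPL22 was 1.72-fold lower (log2 fold change −0.79, SE 0.0731), with means of 7703 ± 612 and 4459 ± 188, and had the 1118th lowest change. RPL22L1 was 1.25-fold higher (0.32, SE 0.124), with means of 221 ± 13.6 and 276 ± 20.6, and had the 3606th highest change. It rests on few reads: 290 over the 3 Parental libraries and 394 over the 3 DD libraries.

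Within a single library the ratio of the 2 genes does not depend on how that library was scaled. Control had 9.68 ± 0.356 counts of RPL22 for each count of RPL22L1, and ZC3H7B had 16.4 ± 1.08. With ZC3H7A the order was turned over, at 0.837 ± 0.0527 counts of RPL22 per count of RPL22L1, and in all 3 of these libraries RPL22L1 had the higher count. The ratio was 34.8 ± 1.99 in Parental and 16.2 ± 0.588 in DD. As RPL22L1 over RPL22, the log2 ratio was higher by 3.53 (SE 0.0614, 11.6-fold) with ZC3H7A than in Control, lower with ZC3H7B by 1.70-fold (−0.76, SE 0.0632), and higher in DD than in Parental by 1.11 (SE 0.0558, 2.15-fold). Between the 2 overexpressions it differed by 4.29 (SE 0.0765, 19.6-fold). None of these 4 comparisons had overlapping groups in the ratio.

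Across replicates of a group the 2 genes did not regularly mirror each other. The library with the lowest RPL22 also had the highest RPL22L1 in 2 of 5 groups, namely Control and ZC3H7B.

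Whether the added RPL22L1 made up in number for the missing RPL22 depended on the transcript length used, so the sum of both genes was taken per kb in more than a single way. Per kb of the longest coding transcript (2078 bases for RPL22, 2190 for RPL22L1), the pair summed to 2244 ± 52.7 in Control and 2114 ± 98.6 with ZC3H7A. These groups overlapped, at 2183 to 2275 and 2038 to 2225, and the log2 difference was −0.09 (SE 0.0432). Per kb of coding sequence (387 and 369 bases) it was −0.02 (SE 0.0424), again with overlap. Per kb of merged exons of all annotated transcripts (4682 and 2326 bases), which counts RPL22 as much longer, the sum was higher with ZC3H7A by 0.45 (SE 0.0379), without overlap. These data do not say which transcripts were present.

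Per longest coding transcript, the sum was also higher with ZC3H7B than in Control, at 2959 ± 89.6 (log2 difference 0.40, SE 0.0321). It was lower in DD, at 2272 ± 99.7 against 3808 ± 299 in Parental (−0.74, SE 0.0765). In neither of these did the groups overlap. With merged exons the differences were 0.35 (SE 0.0286) and −0.70 (SE 0.0764).

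With the same length for a gene in every library, the choice cannot change the order of libraries in the paralog's share of the pair. It changes only the size of that share. Whether the transcripts present differed between groups was not examined. Per merged exons, RPL22L1 was 17.2 ± 0.534% of the pair in Control. It was 70.6 ± 1.31% after ZC3H7A induction and 10.9 ± 0.651% after that of ZC3H7B. In Parental it was 5.47 ± 0.290% and in DD 11.1 ± 0.357%. Per longest coding transcript the shares were 8.93%, 53.2%, 5.47%, 2.66% and 5.55% in that order of groups, and per coding length 9.78%, 55.6%, 6.01%, 2.93% and 6.10%.

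**Figure D2:**
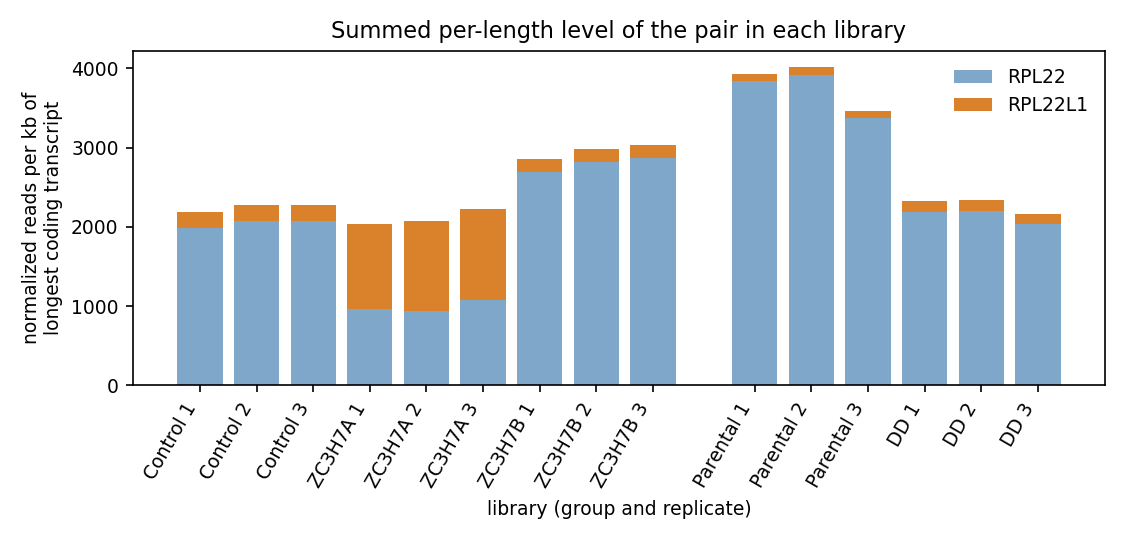
RPL22 and RPL22L1 summed per kb of the longest coding transcript, in normalised counts per kb for each library, with the part from each gene stacked. ZC3H7A (2038 to 2225) overlaps Control (2183 to 2275) although RPL22L1 supplies 53.2% rather than 8.93%, while DD (mean 2272) lies below Parental (mean 3808).

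Relative to the rest of the large subunit, RPL22 was a low-level transcript per kb of the longest coding transcript, the only length used here. In Control it stood at 23.0 ± 0.271% of the median of the other 46 large-subunit genes, and 9 of the 46 lay below it. It stood at 23.8 ± 0.890% with ZC3H7B (10 below) and at 24.0 ± 0.367% in Parental (7 below). With ZC3H7A it was at 8.81 ± 0.792%, and in DD at 19.6 ± 0.257%. RPL22L1 was at 2.26% of that median in Control and at 9.99 ± 0.558% with ZC3H7A. It was at 1.38% with ZC3H7B, 0.656% in Parental and 1.15% in DD.

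The other large-subunit genes mostly rose in both overexpressions. In limma with Benjamini-Hochberg adjustment over all genes at 0.05, 37 of 46 rose and 4 fell with ZC3H7A against Control (34.7% and 41.2% of all genes), with a median log2 fold change of 0.37. RPL8, a core protein near the catalytic centre of the subunit, rose the most (1.19, SE 0.0520), and RPL36A (−0.76) and RPL11 (−0.52) fell. RPL22 lay below all 46 and RPL22L1 above all 46. Of 31 tested small-subunit genes, 26 rose and 1 fell (median 0.39).

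Against Control, 40 of 46 large-subunit genes rose and 2 fell with ZC3H7B (32% and 37.6% of all genes), with a median of 0.35. RPL28 rose by 0.94, and RPL36A fell by 0.83. RPL22, at 0.45, stood within the range of these genes, above 35 and below 11. RPL22L1 had a lower change than all of them except RPL36A. Among small-subunit genes 26 of 31 rose and 1 fell (median 0.36), with RPS3A at −0.48.

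Between the overexpressions, the other ribosomal genes were close to each other. Of the 46, 8 were higher and 6 lower with ZC3H7A (23.9% and 20.4% of all genes), and the median of 0.02 turned negative with trimmed-mean, upper-quartile or equal-total scaling. So did the balance of calls, at 4 higher and 9 lower, 4 and 10, and 7 and 9. Leaving out single libraries gave 4 to 12 higher and 3 to 6 lower. There were 4 higher without ZC3H7A replicate 1 or 2 or ZC3H7B replicate 3, 5 without Control replicate 2 or ZC3H7B replicate 2, and 3 lower without ZC3H7B replicate 1 or 2. RPL8 (0.62) and RPL35 (0.58) were the highest, and RPL11 and RPL6 (both −0.66) the lowest. RPL22 at −1.50 and RPL22L1 at 2.79 lay outside that range on either side.

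In DD, no large-subunit gene rose and 42 of 46 fell (14.7% and 14.8% of all genes rose and fell), with a median of −0.43. RPL13A (−1.23) and RPL11 (−0.99), which also binds MDM2, fell the most. RPL22 was thus among many that were lower: 4 of the 46 had a lower change and 42 a higher one. It lay 0.35 below the list's median on the log2 scale, against 1.42 below it with ZC3H7A. RPL22L1 lay above all 46, the next being RPL8 at 0.13. All 28 small-subunit genes that changed also fell, of 31 tested (median −0.43).

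**Figure D3:**
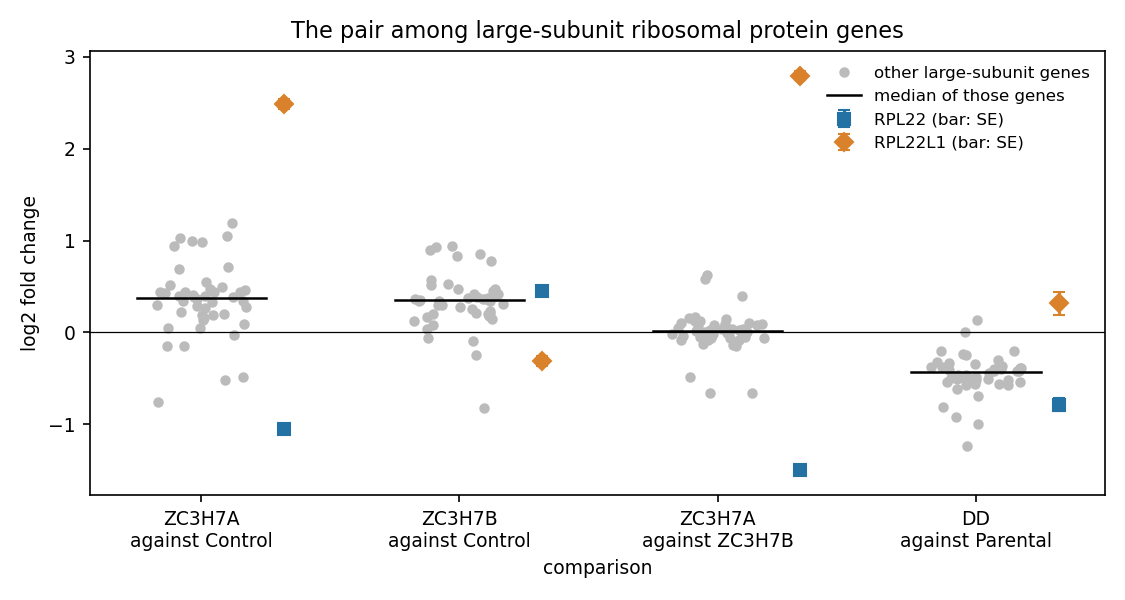
Log2 fold change of RPL22, RPL22L1 and each of the 46 other large-subunit genes in the 4 comparisons; grey points are genes, black lines their medians, and the pair is coloured with limma standard errors. RPL22 lies below every other gene with ZC3H7A against Control (−1.05) and against ZC3H7B (−1.50), but within their range with ZC3H7B (0.45) and in DD (−0.79).

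With ZC3H7A, no other ribosomal gene with a paralog differed from Control by as much as RPL22L1. Of 13 tested genes of these pairs 6 rose and 1 fell (34.7% and 41.2% of all genes). RPL39L rose by 0.53 (SE 0.0493), together with its parent gene RPL39 (0.44), a protein of the peptide exit tunnel. RPL7L1 rose by 0.18. RPL26L1 (0.07), RPL36AL (0.09) and RPS27L (0.00) did not pass, nor did RPL3L (−0.35), a heart and muscle form. With ZC3H7B, 6 rose and 3 fell (32% and 37.6% of all genes), with RPL36A at −0.83 and RPL10 at 0.52 beside −0.31 for RPL22L1, and RPL39L was at −0.11 and did not pass. RPL39L was the one gene of the 13 that differed between the overexpressions, higher by 0.64 with ZC3H7A.

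In DD, 7 of 14 fell and 1 rose (14.8% and 14.7% of all genes), some by more than the 0.32 of RPL22L1. The gene that rose was RPS27L, a paralog of RPS27, at 0.66 (SE 0.0731), while RPS27 itself fell by 0.47. RPL10 (−0.61) and its testis form RPL10L (−0.83) both fell. RPL39L (0.12), RPL26L1 (0.13) and RPL7L1 (0.14) did not pass, with RPL39 at −0.54, RPL26 at −0.50 and RPL7 at −0.33, all of which fell. Several of these genes have many near-identical processed copies in the genome, so their counts depend on how the authors assigned shared reads.

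Genes tied to RPL22 in earlier work were taken from a list. They include the E3 ubiquitin ligase MDM2 and its relative MDM4, the cell cycle inhibitor CDKN1A, the let-7 inhibitor LIN28B, the signal transducers SMAD1 and SMAD2, and UBAP2L, a stress granule protein. With ZC3H7A against Control, UBAP2L rose (0.52) and 6 fell (34.7% and 41.2% of all genes rose and fell): CDKN1A (−1.21), MDM2 (−1.19), LIN28B (−0.71), MDM4 (−0.43), SMAD2 (−0.33) and SMAD1 (−0.27). With ZC3H7B, UBAP2L rose by 0.56, SMAD1 (0.06) did not pass, and 5 fell (32% and 37.6% of all genes rose and fell): LIN28B (−1.43), CDKN1A (−0.92), MDM2 (−0.92), MDM4 (−0.61) and SMAD2 (−0.49). With the trend of codon make-up removed, MDM4 (0.09) and SMAD1 (−0.11) no longer passed with ZC3H7A, SMAD2 turned to 0.21 and MDM2 was at −0.42. With ZC3H7B, SMAD2 (−0.06) no longer passed under that step, and SMAD1 rose by 0.19. RPL22 itself was lower with ZC3H7A and higher with ZC3H7B.

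Between the overexpressions, LIN28B (0.72) was higher with ZC3H7A (23.9% of all genes were higher and 20.4% lower), and SMAD1 (−0.33), CDKN1A (−0.29) and MDM2 (−0.27) were lower, while SMAD2 (0.16) and UBAP2L (−0.03) did not pass. MDM4 (0.18) passed, but not with trimmed-mean, upper-quartile or equal-total scaling, nor when any Control library, ZC3H7A replicate 2 or 3, or ZC3H7B replicate 1 or 2 was left out. In DD, CDKN1A rose by 1.61, while LIN28B (−0.97) and MDM2 (−0.41) fell (14.7% and 14.8% of all genes rose and fell). UBAP2L (0.53) and MDM4 (−0.28) also passed, but neither did without Parental replicate 1, DD replicate 1 or DD replicate 2, and UBAP2L did not without Parental replicate 2. SMAD1 (−0.03) and SMAD2 (−0.01) did not pass there.

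Genes beside RPL22 on chromosome 1 were lower together with it. Of the 20 nearest tested coding genes, 10 on each side, 18 were lower with ZC3H7A than with ZC3H7B and none was higher, against 20.4% and 23.9% of all genes. Their median was −0.46 where that of all genes was 0.01. The nearest 3 on each side gave CHD5 −0.70, KCNAB2 −0.61, NPHP4 −0.52, ICMT −0.55, GPR153 −0.45 and RNF207 0.14, the last not passing. RPL22 at −1.50 was lower than each of the 20, the lowest of which was at −0.76. With 20 genes on each side, 37 of 40 were lower and none higher.

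Against Control, 16 of the 20 neighbours fell with ZC3H7A and 2 rose (41.2% and 34.7% of all genes), with a median of −0.30. The number that fell was 13 with trimmed-mean or upper-quartile scaling and 13 to 15 with single libraries left out. It was 12 with DESeq2 and 17 with the codon trend removed. With ZC3H7B 12 rose and 4 fell (32% and 37.6% of all genes), with a median of 0.17. That pattern depended on the processing: 8 rose and 4 fell with equal library totals (median 0.09), and 7 rose and 5 fell with the codon trend removed (median 0.01). The same step moved the median with ZC3H7A to −0.56. In DD, 10 of 20 fell and none rose (14.8% and 14.7% of all genes), with a median of −0.29. In each of the 4 comparisons, 3 of which share libraries, the neighbours' median had the sign of the RPL22 difference, at a smaller size, though with ZC3H7B it came near 0 under that step. The part of this stretch of chromosome 1 in the RPL22 difference was not tested.

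With ZC3H7A, RPL22L1 stood apart from its neighbours on chromosome 3. Of those 20, 17 fell and none rose with ZC3H7A against Control (41.2% and 34.7% of all genes; median −0.66), including SKIL (−1.06), PHC3 (−0.76), PLD1 (−0.67), EIF5A2 (−0.65), PRKCI (−0.65) and TNIK (−0.29). All 20 fell with ZC3H7B (37.6% of all genes; median −0.76), where RPL22L1 was at −0.31. With the codon trend removed, 11 fell and 1 rose with ZC3H7A (median −0.22), and 15 fell with ZC3H7B (median −0.38). Between the overexpressions 6 were higher and 1 lower (23.9% and 20.4% of all genes; median 0.09), the highest at 0.69, and upper-quartile scaling gave 4 and 4. Without ZC3H7B replicate 1 or 2, 3 were higher. The number lower was 5 without ZC3H7A replicate 3, 3 without ZC3H7B replicate 1, and 0 without ZC3H7A replicate 1 or 2 or ZC3H7B replicate 2 or 3. In DD 6 rose and 2 fell (14.7% and 14.8% of all genes; median 0.10), and RPL22L1 at 0.32 lay within their range.

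**Figure D4:**
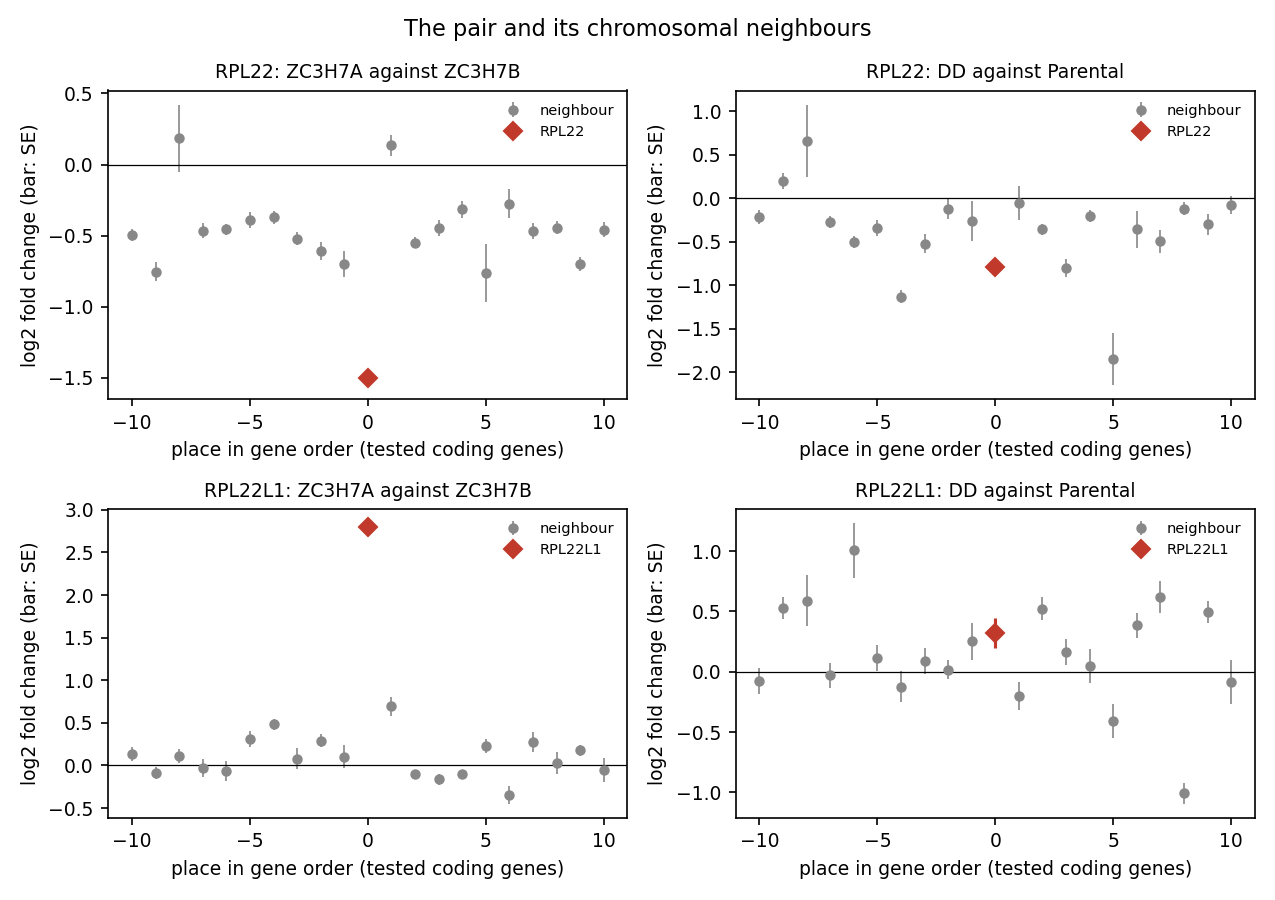
Log2 fold change of RPL22 (on chromosome 1) and RPL22L1 (on chromosome 3) and of the 10 tested coding genes on each side, by place in the gene order, with ZC3H7A against ZC3H7B (left) and in DD against Parental (right); error bars are limma standard errors. Around RPL22 (−1.50), 18 of 20 neighbours are lower with ZC3H7A than with ZC3H7B, where RPL22L1 (2.79) lies above all of its own; in DD both genes lie within the range of their neighbours.

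With ZC3H7A, the pair lay outside the range of most genes of like codon make-up, and with ZC3H7B and in DD it lay inside. Tested genes with a coding sequence were put in 10 equal classes by how many of their codons end in A or T. The classes were formed within each experiment. In the class of RPL22 (39.9% to 46.3%, 1301 genes) the median log2 fold change with ZC3H7A against Control was 0.06, with 90% of genes between −0.94 and 0.74, and RPL22 lay below that range. In the class of RPL22L1 (52.4% to 58.1%) the median was −0.27, with 90% of genes between −1.14 and 0.43, and RPL22L1 lay far above. With ZC3H7B the ranges were −0.87 to 0.64 (median 0.08) and −1.18 to 0.46 (median −0.20), and they held RPL22 at 0.45 and RPL22L1 at −0.31. In DD, where these classes were 40.1% to 46.7% and 52.7% to 58.3%, the ranges were −0.79 to 0.60 and −0.61 to 0.66. RPL22 was at the lower edge of its range at −0.79, and RPL22L1 was at 0.32.

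The genes most like each member were found by the root mean square difference of log2 values over the 15 libraries, each taken relative to the mean of its own experiment's controls, among 13320 genes. For RPL22 the nearest were FOXN4 (0.201), a transcription factor on chromosome 12, the clock gene PER3 (0.205) and UBXN11 (0.217), both on chromosome 1, STMND1 (0.226) on chromosome 6 and the lipase LPL (0.229) on chromosome 8. For RPL22L1 they were CRAT (0.226), carnitine acetyltransferase, on chromosome 9, SECTM1 (0.271) on chromosome 17, CPT1C (0.336), a carnitine palmitoyltransferase of brain, on chromosome 19, the integrin ITGA9 (0.385) on chromosome 3 and CIB2 (0.392) on chromosome 15. CRAT had log2 fold changes of 2.07 with ZC3H7A, −0.33 with ZC3H7B and 0.50 in DD, beside 2.48, −0.31 and 0.32 for RPL22L1.

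Few reads were counted on the RPL22 pseudogenes that have a row of their own. The table's 4 rows for RPL22 pseudogenes summed to at most 29.6 normalised counts in any library, or 0.364% of RPL22. How reads shared between a copy and RPL22 were assigned is not given. These counts therefore do not show how many reads of the RPL22 row came from copies.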

How the data were processed

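RNA-seq libraries of HEK293-derived cells, all labelled poly(A) RNA, were used in 5 groups of 3, assigned from the sample titles; the preparation of the depletion libraries is not given in detail. The deposited table holds normalised counts (a signal: reads divided by a size factor), and the tools named in the submitters' processing notes are DESeq2, HTSeq and STAR 2.7.10b, with the hg19 build; roles and settings are not given in the sources used here, nor is the strand setting, so reads of genes overlapping on opposite strands cannot be told apart. Divided by what 1 read is worth, 100% of each library's values were whole within 0.01 reads, so whole reads were recovered. A set of 4 rows with blank or repeated names was left out.

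Values were analysed as log2(value + 1), which understates changes of low genes. Genes that reached 10 in 3 or more libraries were tested in limma 3.58.1 (R 4.3.3; empirical Bayes, mean-variance trend; two-sided) and called at a Benjamini-Hochberg adjusted p under 0.05 over all tested genes. The 9 overexpression libraries shared a fit, and the 6 depletion libraries had their own. The code was tested on simulated data. Alternatives were other scalings, filters and pseudocounts, edgeR 4.0.16 and DESeq2 1.42.0 on the recovered reads, a replicate block, removal of the trend with codon make-up, other gene lengths and leaving out each library.

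Names were matched to GENCODE 29 on GRCh38 (34195 names, 18254 with a coding sequence) for lengths, sequences and gene order; an hg19 annotation was not used here, so no coordinates are given. Proteins were aligned globally with BLOSUM62 and gap costs of 10 and 0.5. Named genes were the pair, the 2 largest rises and 2 largest falls among ribosomal protein genes with a mean of at least 100, the listed paralogs and RPL22-linked genes, the 3 nearest neighbours on each side and the 5 genes most alike; some genes that this rule selects are not reported here. Members and lists were chosen with earlier results of these data known.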

Additional observations from a re-analysis of the deposited data

How the results depend on the processing

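Of 308 values recomputed for the pair, its ratio and the counts of called genes, 5 changed and none reversed; the 5 are given here. Of 772 others, counts in the gene lists and among neighbours for the most part, 93 moved, most often in ZC3H7A against ZC3H7B. With the trend of codons ending in A or T removed, RPL22L1 with ZC3H7B against Control was −0.0497, and the log2 ratio of RPL22L1 to RPL22 was 3.85 with ZC3H7A and −0.50 with ZC3H7B; that step removes part of any change that goes with codon make-up. With equal library totals, RPL22L1 in DD against Parental was 0.36. Called genes in DD against Parental numbered 5446, and 3582 without DD replicate 1 (3582 to 6817 over the libraries left out).

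Leaving out each library gave, for RPL22, −1.11 to −1.01 (ZC3H7A against Control), 0.43 to 0.48 (ZC3H7B against Control), −1.56 to −1.46 (between the overexpressions) and −0.85 to −0.75 (DD). For RPL22L1 it gave 2.46 to 2.51, −0.34 to −0.28, 2.76 to 2.82 and 0.28 to 0.38. With a replicate block 13478, 12379, 8299 and 4535 genes were called, in that order, and the pair's differences stayed the same, as the design is balanced. Over genes, deviations from the group mean correlated between same-numbered libraries at −0.16 to 0.72 in the overexpression experiment. In the depletion experiment it was −0.27 to −0.01. Differently numbered libraries correlated at −0.72 to 0.56 and −0.31 to 0.32, in that order of experiments. The labels do not say that a number marks a shared culture, so the numbers were not taken to pair libraries. Depth limits RPL22L1 in the depletion experiment most.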

Other observations

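Some ribosomal protein genes other than the pair were listed at different levels in the 2 experiments, which are set side by side here with no test. RPL7 was at 164 to 222 normalised counts in the overexpression libraries and 5439 to 7586 in the depletion libraries. RPL26 was at 8723 to 10409 and 687 to 1169, and RPL10L at 0 to 1.47 and 149.6 to 355. Library protocol and experiment cannot be told apart here, and reads from near-identical gene copies were not examined.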
